A study of Mus musculus with 6 samples.

Results

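The adenylate kinase genes Ak1, Ak3, Ak4, Ak5, Ak6 and Ak7 were taken from the deposited count table by gene symbol, which gave 6 members among 52459 symbols. All 6 were found and all 6 passed the filter on low counts, which left 19565 genes. The libraries were made from whole brains of C57BL/6 mouse embryos at E14.5, with 3 libraries labelled Mfsd7c-/- knockout and 3 labelled wild type. Mfsd7c encodes a membrane transporter. The labels give no conditional allele, treatment or litter, so the 6 samples are treated as independent. Each p-value sets the difference between genotypes against the variation within them, which the fit steadies with information from all genes. The members were selected on family name with their knockout and wild-type expression values already known, so their values in that comparison are a description, and the p-values beside them are those of the fit across all genes.

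Adenylate kinases move a phosphoryl group between adenine nucleotides, balancing ATP, ADP and AMP, and the AMP they form is read by AMP-activated protein kinase. The isoforms differ in place and substrate. Ak1 is the main cytosolic enzyme and is abundant in muscle, red cells and brain, and Ak5 is a cytosolic enzyme of brain. Ak3 sits in the mitochondrial matrix and uses GTP, and Ak4 is a matrix protein of low catalytic activity whose gene is a known target of hypoxia-inducible factor. Ak6 is a nuclear protein with a role in ribosome assembly, and Ak7 belongs to motile cilia. Ak8 and Ak9 are not among the members and are given beside them.

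The sequences before the start sites of the paralogs Ak4 and Ak3 are shown because both encode matrix adenylate kinases and only the first passed the test between genotypes. Both are RefSeq sequences on GRCm38.p6, written from upstream to downstream on the strand of the gene. Capitals mark GCGTG on either strand, which with ACGTG makes up the core that hypoxia-inducible factor is known to bind. The Ak4 stretch is chr4:101419039-101419276 on the plus strand, and the last 12 bases before the start site, which lie in an annotated exon, are left out. The Ak3 stretch is chr19:29047962-29048211 on the minus strand. The third line is chr4:101419479-101419504 on the plus strand, a short stretch in an annotated Ak4 exon, with capitals on ACGTG and its overlapping match on the other strand, the capitals starting 200 bases past the first RefSeq start site.
Ak4 promoter: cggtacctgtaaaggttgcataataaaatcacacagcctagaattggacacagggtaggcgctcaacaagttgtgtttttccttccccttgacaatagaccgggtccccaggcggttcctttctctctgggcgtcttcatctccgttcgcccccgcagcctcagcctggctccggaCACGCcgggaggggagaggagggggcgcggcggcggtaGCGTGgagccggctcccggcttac
Ak3 promoter: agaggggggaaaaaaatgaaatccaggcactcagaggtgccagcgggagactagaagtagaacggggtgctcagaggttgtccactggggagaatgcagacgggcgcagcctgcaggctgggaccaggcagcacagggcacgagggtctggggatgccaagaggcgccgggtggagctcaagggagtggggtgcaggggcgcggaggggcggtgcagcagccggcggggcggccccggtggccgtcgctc
Ak4 downstream site: ccactctgccCACGTGcggggaccgg

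In the 250 bases before the first Ak4 start site, GCGTG was found 2 times, 36 bases before the start on the plus strand and 74 bases before it on the minus strand, and ACGTG was not found. The window of a further RefSeq Ak4 start site, chr4:101419453-101419702, held the ACGTG site of the third line. Its matches began 213 bases before that start on the plus strand and 214 on the minus strand. The Ak3 window held neither motif. Members that edgeR did not call had matches too. The Ak7 window, chr12:105705732-105705981, held 3 GCGTG matches, and the Ak6 window, chr13:100651093-100651342, held 4, although all 250 of its bases lie in annotated exons of Ak6. Of the Ak1 windows, 1 held GCGTG and 1 held ACGTG. Of 32851 start-site windows of 250 bases in the RefSeq table, 28.2% held GCGTG, 16.6% held ACGTG and 38.6% held at least 1 of these motifs. A match is a run of letters and says nothing of binding.

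The libraries held 43784619 to 50549673 counts. Mfsd7c itself had 119, 129 and 130 counts in knockout replicates 1, 2 and 3, against 206, 291 and 259 counts in wild-type replicates 1, 2 and 3, so it was lower in each knockout library. Some libraries stood apart in markers of other tissues or in Xist. Krt5, an epidermal keratin, had 105, 3.73 and 20.4 CPM (read counts relative to the TMM-scaled library total) in knockout replicates 1, 2 and 3, against 79.9, 3.54 and 0.339 CPM in wild-type replicates 1, 2 and 3. The Hox gene Hoxb3 marks tissue behind the forebrain and midbrain. It reached 0.25 CPM at most among knockout libraries, against 0.676, 14.3 and 6.28 CPM in wild-type replicates 1, 2 and 3. Of 16 listed Hox genes 8 were tested, Hoxb3 among them. EdgeR called 0 of the 8, with 7 at an unadjusted p under 0.05, where 8.09% of all genes tested had such a p. Some of the 8 passed the filter on low counts through the wild-type libraries alone, so counts over them are partly fixed by the filter. The listed Hox genes summed to 4.4, 168 and 43.7 CPM in wild-type replicates 1, 2 and 3, against 0.591 to 2.83 CPM in knockout libraries. High Hox levels thus occurred in wild-type replicates 2 and 3 alone, where they cannot be told apart from genotype. Wild-type replicate 2 had 82198 Xist counts, against 6 to 27 in the other libraries. The brain label was borne out by 14 neuron markers summing to 7240 to 8070 CPM in knockout and 7170 to 8290 CPM in wild-type libraries.

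Ak4 was the member that rose in knockout brains. Ak4 (ENSMUSG00000028527.18, chromosome 4 from 101419277 to 101466995) measured 41.7, 37.6 and 51.6 CPM in knockout replicates 1, 2 and 3, against 18.8, 19.2 and 19.8 CPM in wild-type replicates 1, 2 and 3. Every knockout library lay above every wild-type library, and the knockout libraries were spread more widely. The raw counts behind these values were 1798, 1905 and 2474 in knockout and 834, 967 and 992 in wild-type libraries, so the counting error of a single value was 2.01% to 3.46%. The means were 43.6 ± 7.24 CPM in knockout and 19.3 ± 0.495 CPM in wild-type brains (SD, n = 3 each). The log2 fold change was 1.18 (SE 0.114, 95% interval 0.92 to 1.44), a 2.26-fold higher level, in edgeR's quasi-likelihood test over all genes (Benjamini-Hochberg adjusted p = 0.00299). Ak4 stood at rank 26 by p-value among 19565 genes, and at rank 52 by fold change among the 122 genes called higher.

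**Figure D1:**
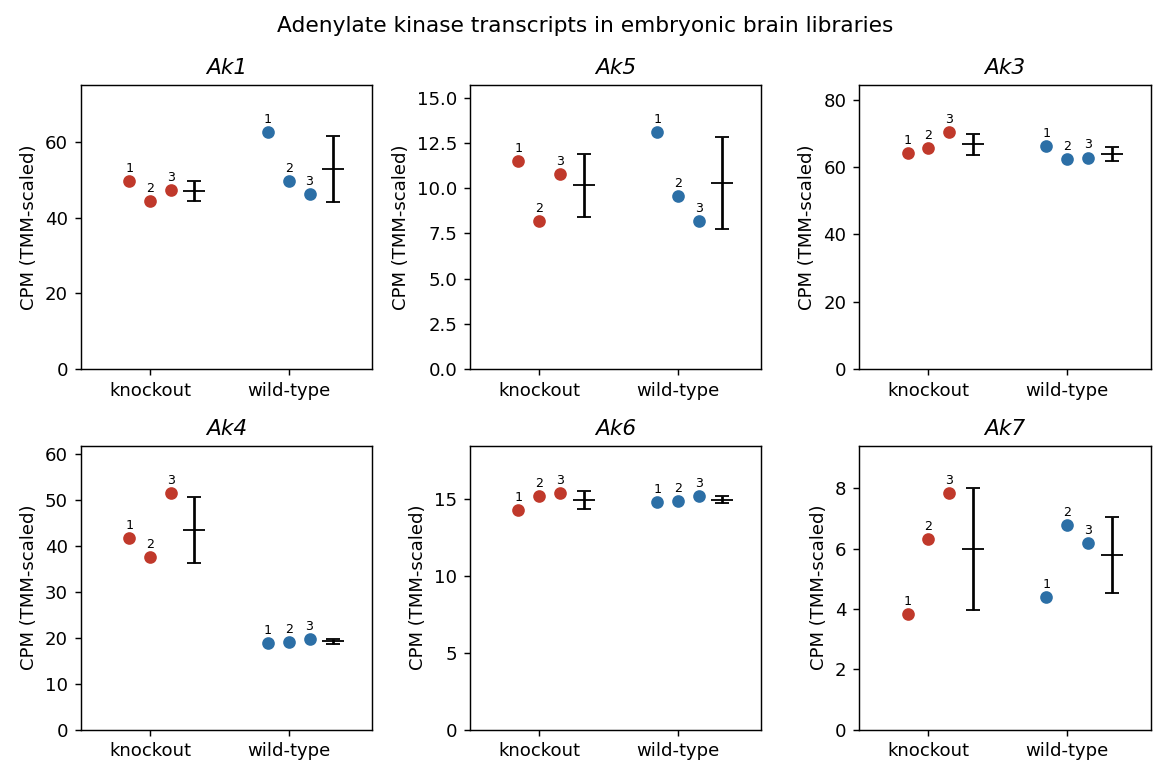
TMM-scaled CPM of each member in 3 knockout and 3 wild-type libraries, with the replicate number above each point and the mean with its SD as a black bar. Ak4 was at 37.6 to 51.6 CPM in knockout and 18.8 to 19.8 CPM in wild-type libraries, and the groups of the other 5 members overlapped.

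Of the 6 members, 1 was called at a false discovery rate of 0.05 and it was higher in knockout, while 0.624% of the genes tested were called higher, 0.0358% lower and 0.659% in either direction. The groups did not overlap for that 1 member, while 14.4% of the genes tested showed no overlap, 7.84% with knockout higher. The choice of members used this comparison, so nothing is read from these counts. The 95% intervals of the other 5 members all spanned 0, and their highest upper bound, 0.65 for Ak7, lay below the lower bound of Ak4. Whether the change of Ak4 differs from that of the others was not tested.

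**Figure D2:**
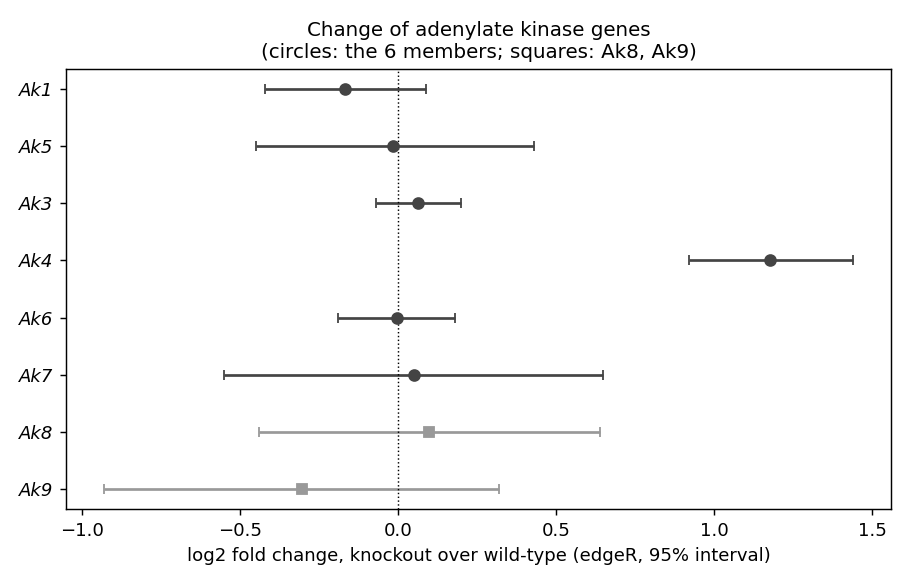
Log2 fold change of 8 adenylate kinase genes, knockout over wild-type, with 95% intervals from the edgeR fit. Circles are the 6 members and squares are Ak8 and Ak9. The Ak4 interval runs from 0.92 to 1.44, and the intervals of the other 7 genes include 0.

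The Ak4 call was lost in 1 of the other fits. Without wild-type replicates 2 and 3, the libraries with Hox expression, the adjusted p in edgeR's quasi-likelihood test was 0.135, a fit in which the lone wild-type library is assumed to vary like the others. Its log2 fold change there was 1.22 (SE 0.191), as large as with all libraries. With single libraries left out, log2 values ran from 1.04 (no knockout replicate 3) to 1.28 (no knockout replicate 2), and the call held in each of these 6 fits.

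**Figure D3:**
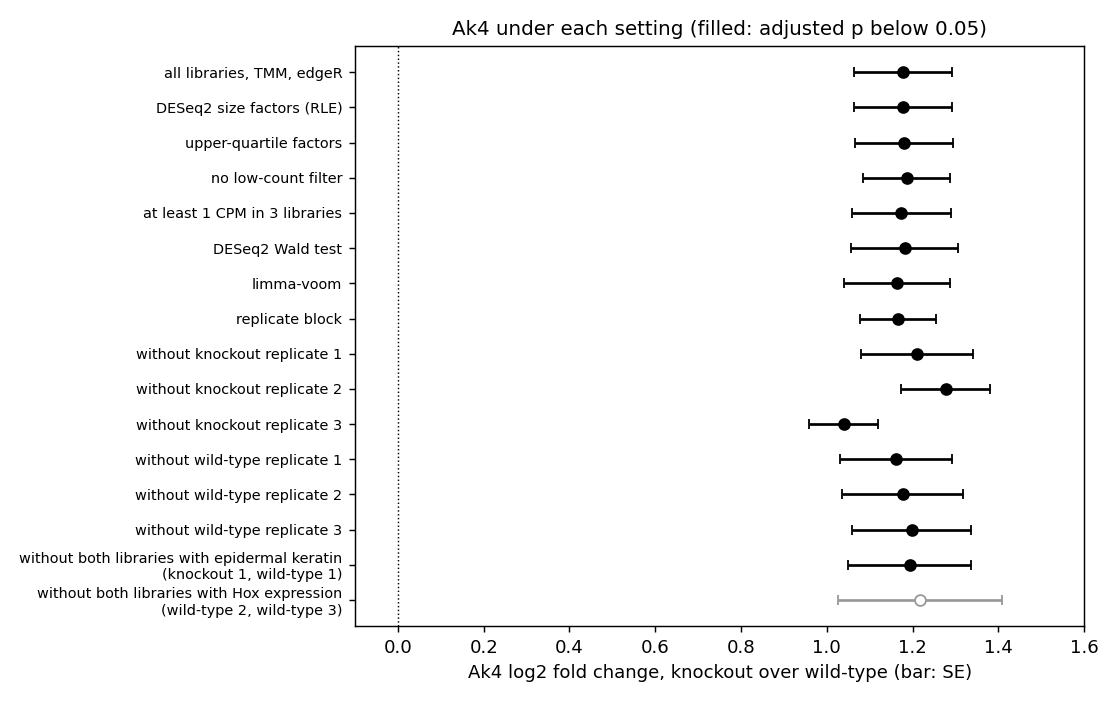
Ak4 log2 fold change, knockout over wild-type, under each scaling, filter, test and choice of libraries, with its SE. Filled points had an adjusted p below 0.05. Values run from 1.04 to 1.28, and the open point at 1.22, without wild-type replicates 2 and 3, had an adjusted p of 0.135.

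Ak3, the GTP-using paralog in the same compartment, did not pass the test. Ak3 (ENSMUSG00000024782.7, chromosome 19 from 29020833 to 29047961) measured 64.0, 65.7 and 70.3 CPM in knockout replicates 1, 2 and 3, against 66.2, 62.4 and 62.8 CPM in wild-type replicates 1, 2 and 3. Its groups overlapped, with wild-type replicate 1 above knockout replicates 1 and 2. The log2 fold change was 0.065 (SE 0.0594, 95% interval -0.07 to 0.20), and edgeR did not call it (adjusted p = 0.831). Of its exon bases 22.85% are shared with Cdc37l1 and 1700018L02Rik on the opposite strand, and no source used here gives the strand setting of the counting. Cdc37l1 averaged 118 ± 3.12 CPM in knockout and 120 ± 12.8 CPM in wild-type brains (SD, n = 3 each). The processed pseudogene Ak3l2-ps had 0 to 3 counts in each library.

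The ratio of Ak4 to Ak3 within a library does not depend on scaling between libraries. Per kb of exon, Ak4 was at 0.437, 0.384 and 0.493 of Ak3 in knockout replicates 1, 2 and 3, against 0.191, 0.207 and 0.212 of Ak3 in wild-type replicates 1, 2 and 3. Ak3 stayed the more abundant matrix transcript in all 6 libraries. With the longest transcript in place of the union of exons, the ratios averaged 0.420 ± 0.0525 in knockout and 0.195 ± 0.0106 in wild-type libraries (SD, n = 3 each).

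Taken as a group, the 6 members overlapped between genotypes in summed level. Their makeup differed through Ak4, which restates the change of that gene. Summed per kb of exon, the 6 members were at 58.1, 55.7 and 62.5 CPM per kb in knockout replicates 1, 2 and 3, against 59.7, 53.2 and 51.6 CPM per kb in wild-type replicates 1, 2 and 3. In these sums wild-type replicate 1 lay between knockout replicates 1 and 3. Ak4 made up 15.4%, 14.5% and 17.8% of the sum in knockout replicates 1, 2 and 3, against 6.78%, 7.79% and 8.25% in wild-type replicates 1, 2 and 3, with no overlap. Without Ak4 the sum averaged 49.4 ± 1.91 CPM per kb in knockout and 50.6 ± 4.38 CPM per kb in wild-type libraries (SD, n = 3 each).

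**Figure D4:**
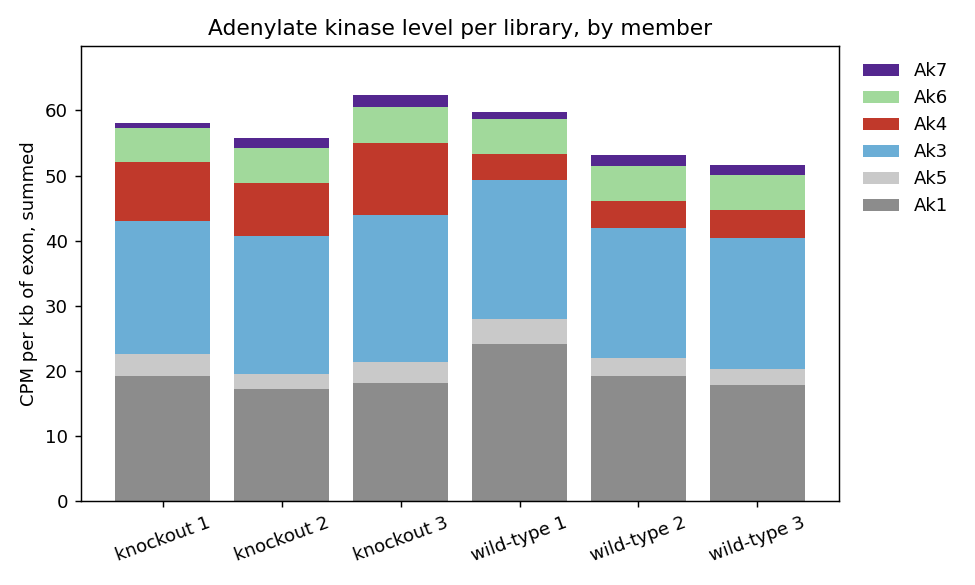
Level of the 6 members in each library, stacked, in TMM-scaled CPM per kb of exon. The stacks reach 55.7 to 62.5 in knockout and 51.6 to 59.7 in wild-type libraries, and the red Ak4 band is 8.09 to 11.1 in knockout and 4.05 to 4.26 in wild-type libraries.

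Among the 6 members, the order of levels per kb of exon put Ak3 and Ak1 at the top in both genotypes. Ak3 averaged 21.4 ± 1.04 and Ak1 18.2 ± 1.00 CPM per kb in knockout brains, and both averaged 20.4 CPM per kb in wild-type brains, with SDs of 0.669 for Ak3 and 3.32 for Ak1. Those neighbours did not differ beyond their spread in wild-type brains. Ak4 came next in knockout at 9.39 ± 1.55 CPM per kb, above Ak6 at 5.41 ± 0.212. In wild-type brains Ak4, at 4.15 ± 0.108 CPM per kb, lay below Ak6, at 5.41 ± 0.0752. The place of Ak6 depended on the length used: per kb of the longest transcript it was at 11.5 CPM in either genotype, and Ak4 then lay below it in both. Ak5 at 2.99 ± 0.511 and Ak7 at 1.43 ± 0.479 CPM per kb were lowest in knockout, as they were in wild-type at 3.02 ± 0.746 and 1.38 ± 0.296 (SD, n = 3 each throughout).

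The cytosolic enzymes Ak1 and Ak5 did not pass the test, and both were highest in wild-type replicate 1. Ak1 (ENSMUSG00000026817.14, chromosome 2 from 32621758 to 32635058) measured 49.7, 44.5 and 47.3 CPM in knockout replicates 1, 2 and 3, against 62.7, 49.9 and 46.3 CPM in wild-type replicates 1, 2 and 3. Only wild-type replicate 1 lay clear of the rest. On the log2 scale Ak1 differed by -0.17 (SE 0.110), with an edgeR adjusted p of 0.758, and it was -0.027 without wild-type replicate 1. The 12 skeletal muscle markers, a tissue rich in Ak1, summed to 12.9 to 24.3 CPM in knockout and 14.5 to 47.6 CPM in wild-type libraries, with the highest sum in wild-type replicate 1. Myog, a gene of the muscle lineage, was at 0 CPM in knockout replicate 3 and at most 0.834 CPM. Of 11 tested muscle markers edgeR called 0, with 1 at an unadjusted p under 0.05. The 13 erythroid markers in the table, of another cell type rich in Ak1, summed to 1790 to 3620 CPM in knockout and 1170 to 2490 CPM in wild-type libraries, and edgeR called 0 of 12 tested, with 1 at an unadjusted p under 0.05. Their part in the Ak1 values was not tested.

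Ak5 (ENSMUSG00000039058.11, chromosome 3 from 152462815 to 152668360) measured 11.5, 8.20 and 10.8 CPM in knockout replicates 1, 2 and 3, against 13.1, 9.55 and 8.18 CPM in wild-type replicates 1, 2 and 3. The groups overlapped, with the wild-type libraries spread more widely. The log2 fold change was -0.014 (SE 0.192, 95% interval -0.45 to 0.43, edgeR adjusted p = 0.991), and its sign turned in several other fits. Of its exon bases 1.32% are shared on the opposite strand with Zzz3, at 93.7 to 105 CPM in knockout and 93.2 to 103 CPM in wild-type libraries, and AI115009, with 2 to 5 counts in knockout and 2 to 12 counts in wild-type libraries. The neuron markers, of the cells that Ak5 is known from, summed to 8070, 7240 and 7820 CPM in knockout replicates 1, 2 and 3, against 8290, 7200 and 7170 CPM in wild-type replicates 1, 2 and 3. Of these 14 markers edgeR called 0, with 0 at an unadjusted p under 0.05. The 3 libraries with the highest neuron sums, wild-type replicate 1 and knockout replicates 1 and 3, also had the highest Ak5 values. Whether the Ak5 level follows the share of neurons was not tested. In whole brain, fewer cells of a type and less RNA per cell cannot be told apart.

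Ak6, the nuclear member, had the smallest measured spread of the 6 members. Ak6 (ENSMUSG00000078941.9, chromosome 13 from 100650979 to 100666359) measured 14.3, 15.2 and 15.4 CPM in knockout replicates 1, 2 and 3, against 14.8, 14.9 and 15.2 CPM in wild-type replicates 1, 2 and 3. These 6 values spanned 0.11 on the log2 scale. The SD of a single value within a genotype was 0.0440 in log2 CPM, against 0.0599 for Ak3, 0.168 for Ak4, 0.171 for Ak1, 0.305 for Ak5 and 0.440 for Ak7, and a median of 0.119 over 15494 genes with a mean of at least 1 CPM. The counting error of a single Ak6 value was 3.6% to 4.03%. Its spread within a genotype was 4.05% in knockout and 1.38% in wild-type libraries, so it was not above counting error in wild-type. Whether Ak6 varies less than Ak3 was not tested. The log2 fold change of Ak6 was -0.0038 (SE 0.0806, edgeR adjusted p = 0.994). Its values are uncertain, because 56.48% of its exon bases are shared with Taf9 on the same strand, and no source used here says how reads in shared exons were counted. Rad17, a checkpoint gene that shares 2.64% of the Ak6 exon bases on the opposite strand, averaged 25.7 ± 1.68 CPM in knockout and 26.0 ± 2.47 CPM in wild-type brains (SD, n = 3 each). Taf9, which encodes a subunit of the general transcription factor TFIID, was credited with 31 to 62 counts per knockout library and 43 to 49 per wild-type library.

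Ak7, the cilium member, varied most, and its variation crossed the genotypes. Ak7 (ENSMUSG00000041323.6, chromosome 12 from 105705976 to 105782447) lies 19.89 Mb from Mfsd7c on the same chromosome. It measured 3.85, 6.31 and 7.85 CPM in knockout replicates 1, 2 and 3, against 4.40, 6.80 and 6.18 CPM in wild-type replicates 1, 2 and 3. Knockout replicate 1 and wild-type replicate 1, which had the highest epidermal keratin, were the lowest of their groups. Knockout replicate 3, which also held some keratin, had the highest Ak7 level. The log2 fold change was 0.051 (SE 0.264, 95% interval -0.55 to 0.65, edgeR adjusted p = 0.978), and the sign turned when knockout replicate 3 or wild-type replicate 1 was left out. The counts behind these values ran from 166 to 376, with counting errors of 5.16% to 7.76%, smaller than the spread within a genotype of 33.6% in knockout and 21.6% in wild-type libraries.

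Other genes of ciliated cells were compared with Ak7 by library. The 20 motile cilium genes in the table summed to 164, 219 and 222 CPM in knockout replicates 1, 2 and 3, against 194, 240 and 220 CPM in wild-type replicates 1, 2 and 3. Of 19 tested, edgeR called 0, with 0 at an unadjusted p under 0.05, and DESeq2 and limma-voom also called 0. Knockout replicate 1 was the lowest knockout library for 18 of the 19, as for 34.7% of all genes tested, and wild-type replicate 1 the lowest wild-type library for 13, as for 40.6%. The wild-type order differed for the others, among them the dynein gene Dnah5, named after its values were seen, whose wild-type replicates 1, 2 and 3 measured 4.49, 3.44 and 4.31 CPM. Foxj1, the master factor of motile cilia, was among the 13, with 28.9, 39.1 and 40.2 CPM in knockout replicates 1, 2 and 3, against 37.8, 44.8 and 41.5 CPM in wild-type replicates 1, 2 and 3. The next lowest p-values among the cilium genes were those of Ccdc39 and Ccdc40, with log2 fold changes of -0.15 and -0.074. The 8 choroid plexus markers, from an epithelium that bears motile cilia, summed to 672, 1030 and 1410 CPM in knockout replicates 1, 2 and 3, against 1020, 1140 and 1020 CPM in wild-type replicates 1, 2 and 3. Knockout replicate 1 was lowest and knockout replicate 3 highest, as for Ak7. The wild-type libraries matched less well, since the sum of replicate 1 was as high as that of replicate 3. In wild-type replicate 1 the centred log2 level averaged -0.05 over the 8 markers, against -0.381 for Ak7. Ttr alone gave 575, 870 and 1230 CPM of the sums in knockout replicates 1, 2 and 3. EdgeR called 0 of the 8, with 0 at an unadjusted p under 0.05. Whether the Ak7 level follows the share of such cells was not tested.

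**Figure D5:**
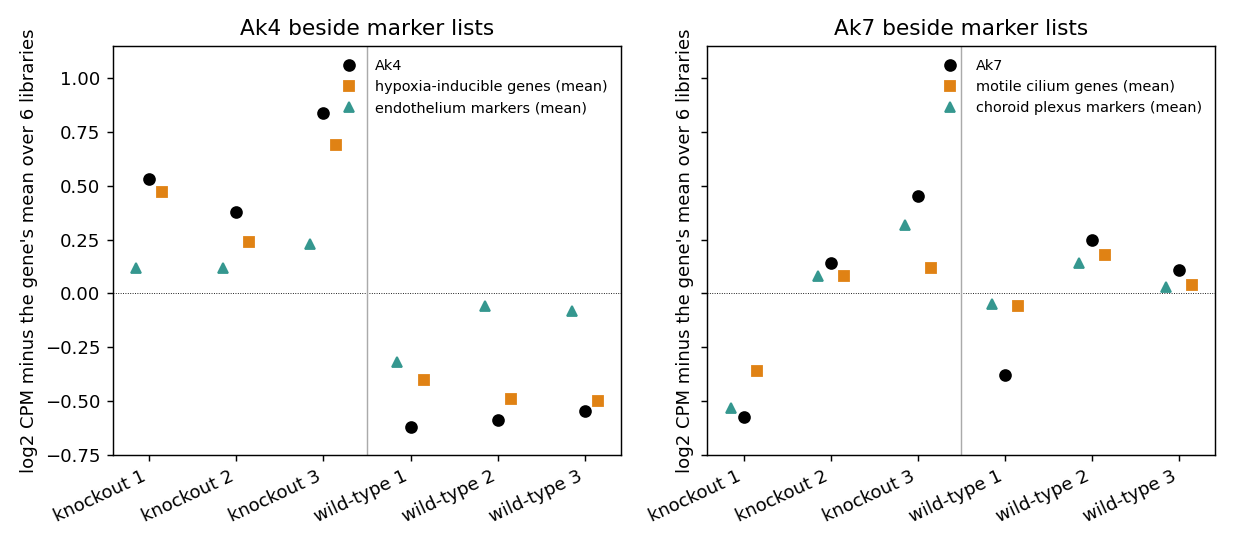
Log2 CPM in each library minus the mean over 6 libraries, for Ak4 beside the means of hypoxia-inducible and endothelium genes (left) and for Ak7 beside the means of motile cilium and choroid plexus genes (right). Ak4 and both list means beside it are above 0 in the 3 knockout libraries and below 0 in the 3 wild-type libraries. Ak7 is lowest in knockout replicate 1 and wild-type replicate 1.

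The genes whose profile lay closest to Ak4 were sought among 15480 genes by the root mean square difference of centred log2 CPM over the 6 libraries. The closest were P4ha1 at 0.0574, Flt1 at 0.0636, Gpi1 at 0.0644, Cd34 at 0.0949 and Prelid2 at 0.0972, where the log2 values of Ak4 spanned 1.46. P4ha1 encodes a collagen prolyl hydroxylase, Flt1 a receptor of vascular endothelial growth factor, Gpi1 the glucose phosphate isomerase and Cd34 a surface protein of endothelium. All 5 were highest in knockout replicate 3, as Ak4 was, which follows from choosing them for closeness to Ak4 and is no separate result. For Ak7, whose log2 values spanned 1.03, the closest were Gm16096 at 0.0508, Gm15832 at 0.0511, Otx2os1 at 0.0745, AC163903.1 at 0.0836 and Hfe at 0.0971. Otx2os1 is transcribed opposite Otx2, a transcription factor of the choroid plexus. These distances describe 6 shared libraries and carry no test.

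A list of 24 hypoxia-inducible genes, which does not include Ak4, summed to 4370, 3610 and 4830 CPM in knockout replicates 1, 2 and 3, against 2290, 2120 and 2110 CPM in wild-type replicates 1, 2 and 3. The sum was highest in knockout replicate 3 and lowest in knockout replicate 2 of that group, as Ak4 was. Of the 24 genes 19 had this order of the knockout libraries, as had 15.9% of all genes tested, while Kdm3a, Ankrd37, Ndrg1, Car9 and Pfkfb4, named after their values were seen, did not. Of all 24 genes edgeR called 13 higher and 0 lower, where 0.624% of all genes tested were called higher and 0.0358% lower. The median log2 fold change of the 24 was 0.95, against -0.0099 over all genes tested. The 3 with the lowest p-values were the pyruvate dehydrogenase kinase Pdk1 at 1.56 (SE 0.115), the mitophagy receptor Bnip3 at 1.91 (SE 0.156) and the glycolytic kinase Pgk1 at 1.10 (SE 0.0864) on the log2 scale. Leaving out wild-type replicate 2 gave 5 called, leaving out wild-type replicate 3 gave 6, and leaving out both gave 2. Of 8 endothelium markers, which summed to 344 to 380 CPM in knockout and 264 to 317 CPM in wild-type libraries, edgeR called 3 higher and 1 lower, and 4 did not pass. Of 7 mural cell markers, which summed to 126 to 136 CPM in knockout and 183 to 206 CPM in wild-type libraries, edgeR called 0 higher and 1 lower. That gene was the pericyte marker Rgs5, with a log2 value of -1.28 (SE 0.0984, edgeR adjusted p = 0.00094), named after its values were seen. Rgs5 alone gave 36.8 to 43.6 CPM of the mural sums in knockout and 84.3 to 105 CPM in wild-type libraries. Whether the Ak4 values follow any of these lists was not tested.

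Among 6 other nucleoside monophosphate kinases none passed. Of these 6 edgeR called 0, with 0 at an unadjusted p under 0.05, and DESeq2 and limma-voom called 0. Dtymk, the thymidylate kinase, measured 65.3, 69.0 and 65.3 CPM in knockout replicates 1, 2 and 3, against 70.6, 70.1 and 72.1 CPM in wild-type replicates 1, 2 and 3. Its groups did not overlap, and the log2 difference was -0.092 (SE 0.0519) with an edgeR adjusted p of 0.712. Ak9 measured 1.14, 1.34 and 2.21 CPM in knockout replicates 1, 2 and 3, against 1.65, 2.15 and 1.99 CPM in wild-type replicates 1, 2 and 3, and Ak8 was at 1.44 to 1.59 CPM in knockout and 1.14 to 1.87 CPM in wild-type libraries. With 49 to 108 counts for Ak9 and 57 to 94 for Ak8, counting error alone was 9.62% to 14.3%.

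Genes that use, carry or sense the products of adenylate kinases gave no call. Among phosphoryl transfer enzymes and adenine nucleotide carriers, edgeR called 0 of 13 tested, with 0 at an unadjusted p under 0.05 and a median log2 fold change of -0.065. The groups did not overlap for 6 of these 13, in both directions, as for 14.4% of all genes tested. The lowest p-values were those of Slc25a31, a nucleotide carrier at 0.64 (SE 0.315), and the nucleoside diphosphate kinases Nme1 at -0.15 (SE 0.0753) and Nme2 at -0.35 (SE 0.185). Slc25a31 was near the floor, averaging 0.462 ± 0.0692 CPM in knockout and 0.296 ± 0.0549 CPM in wild-type libraries (SD, n = 3 each). Nme2 was scarce too, at 1.69 to 2.18 CPM in knockout and 2.27 to 2.61 CPM in wild-type libraries.

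AMP-activated protein kinase, the sensor of AMP, showed no called subunit. Of its 12 tested subunit and upstream kinase genes edgeR called 0, with 2 at an unadjusted p under 0.05, where 8.09% of all genes tested had such a p. Prkab2, a beta subunit, measured 39.4, 35.7 and 39.2 CPM in knockout replicates 1, 2 and 3, against 34.6, 31.9 and 32.5 CPM in wild-type replicates 1, 2 and 3. Its log2 fold change was 0.21 (SE 0.0704, edgeR adjusted p = 0.460). Camkk2, an upstream kinase, was at -0.12 (SE 0.0497) and the gamma subunit Prkag1 at -0.13 (SE 0.0854). Of 13 genes of AMP and adenosine turnover edgeR called 0, with 0 at an unadjusted p under 0.05. The AMP deaminase Ampd2 was at -0.12 (SE 0.0609), the nucleotidase Nt5c at -0.090 (SE 0.0692) and the adenosine deaminase Ada at -0.19 (SE 0.185) on the log2 scale. DESeq2 and limma-voom called 0 genes of these 3 lists.

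The mitochondrial matrix list holds enzymes that make or use GTP there, with related enzymes of the citric acid cycle. Of 7 tested edgeR called 0, with 1 at an unadjusted p under 0.05, and DESeq2 and limma-voom called 0. That gene was Pck2, the matrix phosphoenolpyruvate carboxykinase, at 25.1, 23.7 and 24.0 CPM in knockout replicates 1, 2 and 3, against 21.2, 18.9 and 18.3 CPM in wild-type replicates 1, 2 and 3. Each knockout library was above each wild-type library, the log2 difference being 0.32 (SE 0.0808) with an edgeR adjusted p of 0.234. Without wild-type replicate 1 it was called, at 0.39 (SE 0.0775, edgeR adjusted p = 0.0373). Suclg2 and Suclg1, subunits of succinyl-CoA synthetase, were at 0.11 (SE 0.0790) and -0.053 (SE 0.0657).

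In the authors' deposited table, which rests on the same 6 libraries, Ak4 had a log2 fold change of 1.18 (SE 0.125, DESeq2 adjusted p = 2.97e-18) and was called, as were 1.5% of the genes with an adjusted p. In the authors' deposited table the other 5 members had adjusted p-values of 0.945 or more.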

How the data were processed

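Bulk RNA sequencing of whole E14.5 brain gave 3 knockout and 3 wild-type libraries, grouped by title. The deposited values are raw counts per gene symbol, as the whole numbers and differing totals show. Per the submitters' processing notes, STAR 2.5.2a, featureCounts and DESeq2 1.12.4 were used, and the builds mm10 and hg19 are listed with no role. The authors' table holds, per the file headers, a p-value, raw and adjusted, a log2 fold change and SE, the Wald statistic (a score) and a mean normalized signal.

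Genes were kept by filterByExpr, scaled by TMM and tested with the robust quasi-likelihood test in edgeR 4.0.16, with Benjamini-Hochberg adjustment over all 19565 genes at 0.05. The fit was tested on simulated data. Levels per kb use the union of GENCODE M21 exons on GRCm38. Alternatives were DESeq2 1.42.0, whose log2 fold changes equalled those of the authors' deposited table within 9.4e-11 and so are no second source, limma-voom (limma 3.58.1), other scalings, filters and lengths, a replicate block, a threshold of 0.01 and libraries left out. The sums with Ak8 and Ak9 and the shares without pairs of libraries were chosen after seeing the data. The members, gene lists and left-out libraries were chosen with earlier results of these data known.

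The text names the members, genes sharing their loci, the 3 lowest p-values of each pathway list, and, for members spanning at least 1 in log2 CPM, the 5 closest profiles with a mean of at least 1 CPM. Hoxb3, Krt5, Xist, Myog and Otx2 were named to describe libraries or cells, and marker lists are otherwise given by counts and sums. Every 2 libraries of a genotype differed by more than sampling noise. Counting errors cover counting only. A further gene is not reported here.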

Additional observations from a re-analysis of the deposited data

How the results depend on the processing

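Counts of all genes called, then higher and lower, were 129, 122 and 7 in edgeR. They were 211, 190 and 21 without a low-count filter, 308, 250 and 58 in the DESeq2 Wald test, 49, 45 and 4 at a threshold of 0.01, 459, 265 and 194 without knockout and wild-type replicate 1, and 20, 16 and 4 without wild-type replicates 2 and 3. Leaving out single libraries gave 36 to 388 in all, 33 to 233 higher and 3 to 155 lower. The number of members called, 1, became 0 without wild-type replicates 2 and 3, where Ak4 had a log2 value of 1.22 with fewer libraries. The hypoxia-inducible genes called, 13, became 21 in DESeq2, 8 at 0.01, 2 without wild-type replicates 2 and 3, and 5 to 15 without single libraries. The matrix GTP genes called ranged from 0 to 1 without single libraries. Replicate numbers were not shown to pair the samples: deviations of the same number correlated at 0.694, 0.379 and 0.0578, and knockout replicate 2 correlated better with wild-type replicate 3 (0.607). A replicate block gave 282, 212 and 70 genes, and Ak4 at 1.17 (adjusted p = 0.000172).

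The Ak4 share, 15.9% in knockout and 7.61% in wild-type libraries, became 13.7% and 6.43% with longest transcripts, and 15.6% and 7.46% with Ak8 and Ak9 added. In wild-type it was 8.45% without Ak6 and 6.78% without replicates 2 and 3. The summed level, 58.8 in knockout and 54.8 CPM per kb in wild-type, became 72.9 and 69.0 with longest transcripts, and 59.8 and 55.9 with Ak8 and Ak9 added. Signs turned for genes that were not called. Ak5 was 0.0011 in limma-voom and 0.10 without knockout and wild-type replicate 1, and ran from -0.15 to 0.20 without single libraries. Ak6 was 0.0041 without a filter, 0.00033 in DESeq2, 0.023 without knockout and wild-type replicate 1 and 0.015 without wild-type replicates 2 and 3, and ran from -0.024 to 0.03 without single libraries. Ak7 ran from -0.19 to 0.29 and Ak8 from -0.042 to 0.34. The causes were not tested. At 49 to 108 counts per library, depth limits what can be said of Ak8 and Ak9.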
